A study of Mus musculus with 2 samples.

Results

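Translation initiation and elongation factors are the proteins that load the ribosome onto mRNA, find the start codon and move the ribosome along the reading frame. The genes described here were the protein-coding genes of GENCODE M21 whose symbols begin with Eif1 to Eif6, Eef1 or Eef2, without the eIF2 alpha kinases, chosen by name and not by level. There were 64 such genes, of which 63 had a row in both gene tables, out of 21461 nuclear protein-coding genes and 43346 Ensembl genes with a row. Eef1akmt4, an eEF1A methyltransferase, had no row. Its level was not analysed here.

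RNA came from 2 cultures of G1E-ER4, an immortalized mouse erythroid line labelled C57BL/6J and male. The line lacks its own Gata1, the erythroid transcription factor, and carries a restored form that acts when estradiol is bound. Both cultures had been given 17beta-estradiol at 10 nM for 24 h and were labelled biological replicates 1 and 2. Total RNA depleted of ribosomal RNA, 100 ng a library, was sequenced after ScriptSeq preparation, with a size range of 200 to 1000. An untreated culture was not analysed here. Levels, ratios within a library and the spread between replicates are given and no effect of estradiol was tested.

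Replicate 1 held 62080996 expected counts on 16115 Ensembl genes with reads, and replicate 2 held 41051158 on 19353 genes. Levels are in deposited TPM (transcripts of a gene as a length-scaled share of the library), and errors are SD over n = 2. Nuclear protein-coding genes held 140991 TPM in replicate 1 and 143913 TPM in replicate 2, so a factor of 7.09 or 6.95 puts a level on a scale of protein-coding mRNA alone. All 11 erythroid markers stood at 1 TPM or more in both libraries, while the 3 lymphoid markers had 0 counts and none of 6 myeloid markers reached 1 TPM. Gata1 was among the 11. The line carries it as a restored form, so its level does not mark the cell type here. Of 4 megakaryocyte markers 2 passed, Itga2b at 2.04 and 1.70 TPM and Gp1ba at 1.84 and 1.44 TPM, and of 4 muscle or neuron markers Tubb3 passed, at 5.86 and 4.03 TPM. None of 3 mast cell markers passed, though Cpa3 had 95 and 105 counts. The summed myeloid level was 0.11 TPM in replicate 1 and 1.54 TPM in replicate 2. In bulk RNA, fewer cells of a type and less RNA per cell cannot be told apart.

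Initiation begins when eIF2 brings the initiator tRNA to the small ribosomal subunit, together with eIF1, eIF1A, eIF3 and eIF5. The eIF4F complex (cap-binding eIF4E, scaffold eIF4G and helicase eIF4A) recruits the mRNA, eIF5B joins the large subunit, and eIF2B recharges eIF2 with GTP. In elongation eEF1A delivers aminoacyl-tRNAs, eEF1B recharges eEF1A, and eEF2 translocates the ribosome. Erythroid cells are known for devoting most of their protein synthesis to globin as they mature, and haem supply controls eIF2 in them through the kinase encoded by Eif2ak1.

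Nearly all translation factor genes had mRNA in these cells. Of the 63, 57 stood at 1 TPM or more in both replicates, against 36.3% of nuclear protein-coding genes. The median level of the 63 was 16.8 TPM, against 0.02 TPM over all nuclear protein-coding genes. Over the 57 alone the median was 26.3 TPM, against 6.43 TPM over the 7781 protein-coding genes past the same level. By mean level, 4 factors lay at 100 TPM or more, 36 between 10 and 100 TPM, 17 between 1 and 10 TPM and 6 under 1 TPM. Together they held 2.46% of nuclear protein-coding TPM in replicate 1 and 2.48% in replicate 2. Eef1a1 alone held 0.979% ± 0.00368, and the 49 initiation factor genes (Eif1 to Eif4, Eif5, Eif5b and Eif6, with the eIF4E regulators) held 0.972% ± 0.00463. In gene TPM, which counts all transcript classes, a single elongation factor was thus about as large a share as all initiation factors summed. Over protein-coding transcripts alone, where several initiation factors stood much lower, these shares were not compared.

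**Figure D1:**
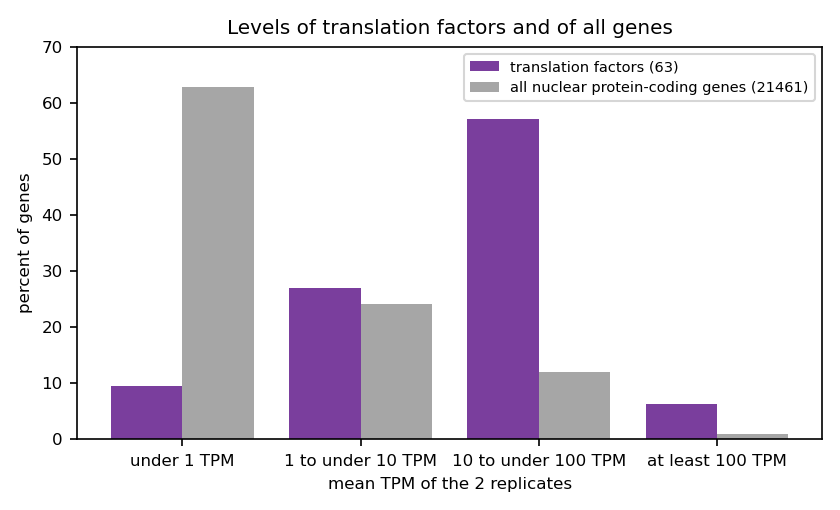
Percent of genes in 4 ranges of mean TPM, for the 63 translation factors (purple) and for all 21461 nuclear protein-coding genes (grey). Of the translation factors 9.52% lay under 1 TPM, against 62.9% of protein-coding genes, and 57.1% lay between 10 and 100 TPM, against 11.97%.

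Eif1, Eif1b, Eif1a, Eif1ax, Eif1ad, Eif5, Eif5b and Eif6 were taken as a group. All 8 genes passed 1 TPM in both replicates, with a median of 20.7 TPM. Eif1, which keeps the scanning ribosome open until the start codon is met, had 74.49 TPM in replicate 1 and 84.04 TPM in replicate 2 (GRCm38 chromosome 11, 100319885 to 100322096, plus strand). Its paralog Eif1b had 49.55 and 39.19 TPM. The ratio of Eif1 over Eif1b was 1.503 in replicate 1 and 2.14 in replicate 2, log2 0.84 ± 0.36. That lead lay on short processed transcripts, because Eif1 had only 19.93 and 22.23 TPM on protein-coding transcripts, and over those alone the ratio turned to log2 -1.07 ± 0.35. The replicates moved in opposite directions for the paralogs, and uncorrected for length their counts did not differ beyond the spread (log2 0.0038).

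eIF1A, the partner of eIF1 in scanning, is encoded by Eif1a and by the X-linked Eif1ax. Eif1a stood at 11.25 and 10.99 TPM, and Eif1ax at 3.61 and 4.44 TPM. Eif1a was thus the larger source, by 2.78-fold (log2 1.47 ± 0.23). Eif5, which triggers GTP hydrolysis by eIF2, had 37.71 and 35.95 TPM. Eif5b, the GTPase of subunit joining, had 29.49 and 26.09 TPM, and the ratio of Eif5 over Eif5b was log2 0.41 ± 0.08. It was log2 0.17 in counts not divided by length, within its SD. Over protein-coding transcripts alone it was log2 1.75 ± 0.15, since 43.9% of Eif5b TPM was assigned to a processed transcript of 578 bases that held 3.96% and 4.23% of its counts. Eif6, which keeps the large subunit from joining too early, had 12.71 and 14.34 TPM. Eif1ad, a protein with an eIF1A-like domain, was lower, at 3.98 and 4.97 TPM.

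The 3 expressed subunits of eIF2 lay close together. Eif2s1 (alpha, the subunit phosphorylated under stress) had 16.93 and 16.71 TPM, Eif2s2 (beta) had 31.33 and 27.86 TPM, and Eif2s3x (gamma, X-linked) had 25.46 and 27.37 TPM. The highest mean was 1.76 times the lowest. The Y-linked gamma gene, Eif2s3y, had 0 counts in replicate 1 and 4 counts in replicate 2, in a line labelled male. Ddx3y, the Y-linked copy of the scanning helicase gene Ddx3x, likewise had 0 and 7 counts.

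The 5 subunits of eIF2B spread more widely and lay lower. Eif2b2 (beta) had 18.23 and 21.97 TPM, Eif2b5 (epsilon, the catalytic subunit) 8.76 and 10.02 TPM, and Eif2b4 (delta) 6.63 and 7.72 TPM. Eif2b1 (alpha) had 5.87 and 5.11 TPM, and Eif2b3 (gamma) was lowest at 2.80 and 2.99 TPM. The range over the 5 subunits was 6.94-fold. It was narrower over protein-coding transcripts alone, where Eif2b2 had 10.91 and 10.50 TPM, close to Eif2b5 at 8.77 and 10.02 TPM. Eif2b3 was still the lowest there, at 2.42 and 2.63 TPM. Per subunit, eIF2 mRNA averaged 24.6 TPM in replicate 1 and 24.0 TPM in replicate 2, against 8.46 and 9.56 TPM for eIF2B. The ratio of eIF2 over eIF2B was 2.70-fold, log2 1.43 ± 0.15, and eIF2 was higher in both libraries. Over protein-coding transcripts alone the ratio was 3.80-fold. For the pair of alpha subunits alone, Eif2s1 over Eif2b1 gave log2 1.62 ± 0.13.

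Eif2a and Eif2d encode factors that can bring tRNA to the ribosome without eIF2. Eif2a had 12.20 and 12.53 TPM and Eif2d 3.89 and 3.76 TPM. Eif2a was 3.23-fold higher (log2 1.69 ± 0.06), or 1.98-fold higher over protein-coding transcripts alone.

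The subunits of eIF3, the large scaffold that holds the small ribosomal subunit open and binds eIF4G, were all expressed, with a median of 32.2 TPM over 14 genes. They did not share a level. Eif3k stood highest, at 99.48 and 94.84 TPM, followed by Eif3e at 86.69 and 82.64 TPM and Eif3a at 70.28 and 61.81 TPM. Eif3b, a core subunit, was lowest outside the j genes, at 9.15 and 8.59 TPM. Leaving out the j genes, the highest mean was 10.95 times the lowest, over 12 subunits of a complex in which each is present once.

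The other eIF3 subunits formed an unbroken series between these ends. Eif3h had 59.61 and 51.26 TPM, Eif3m 40.81 and 44.48 TPM, and Eif3d, a subunit that can bind the mRNA cap, 35.94 and 39.58 TPM. Eif3c had 33.15 and 34.27 TPM, Eif3l 29.25 and 32.21 TPM, and Eif3i 27.14 and 29.99 TPM. Eif3g, an RNA-binding subunit, had 24.48 and 28.11 TPM, and Eif3f, an outer subunit, 12.77 and 15.34 TPM. The 12 subunits outside the j genes had the same order in both libraries, although the ranges over replicates of Eif3l and Eif3i, and of Eif3i and Eif3g, overlapped.

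eIF3j, a loosely bound subunit, has 2 annotated genes. Eif3j1, on chromosome 2, had 1.66 and 1.59 TPM, and Eif3j2, an intronless gene on chromosome 18, had 12.39 and 12.34 TPM. Their coding sequences were 99.7% identical over 783 aligned bases, with an identical run of 781 bases, so reads within them can hardly be assigned. Eif3j1 received 19.4% of the summed counts of the pair in replicate 1 and 16.5% in replicate 2. The posterior SD of the count was the same for both genes, 30.2 counts in replicate 1 and 20.6 counts in replicate 2. The split of eIF3j between its genes is therefore reported as uncertain.

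**Figure D2:**
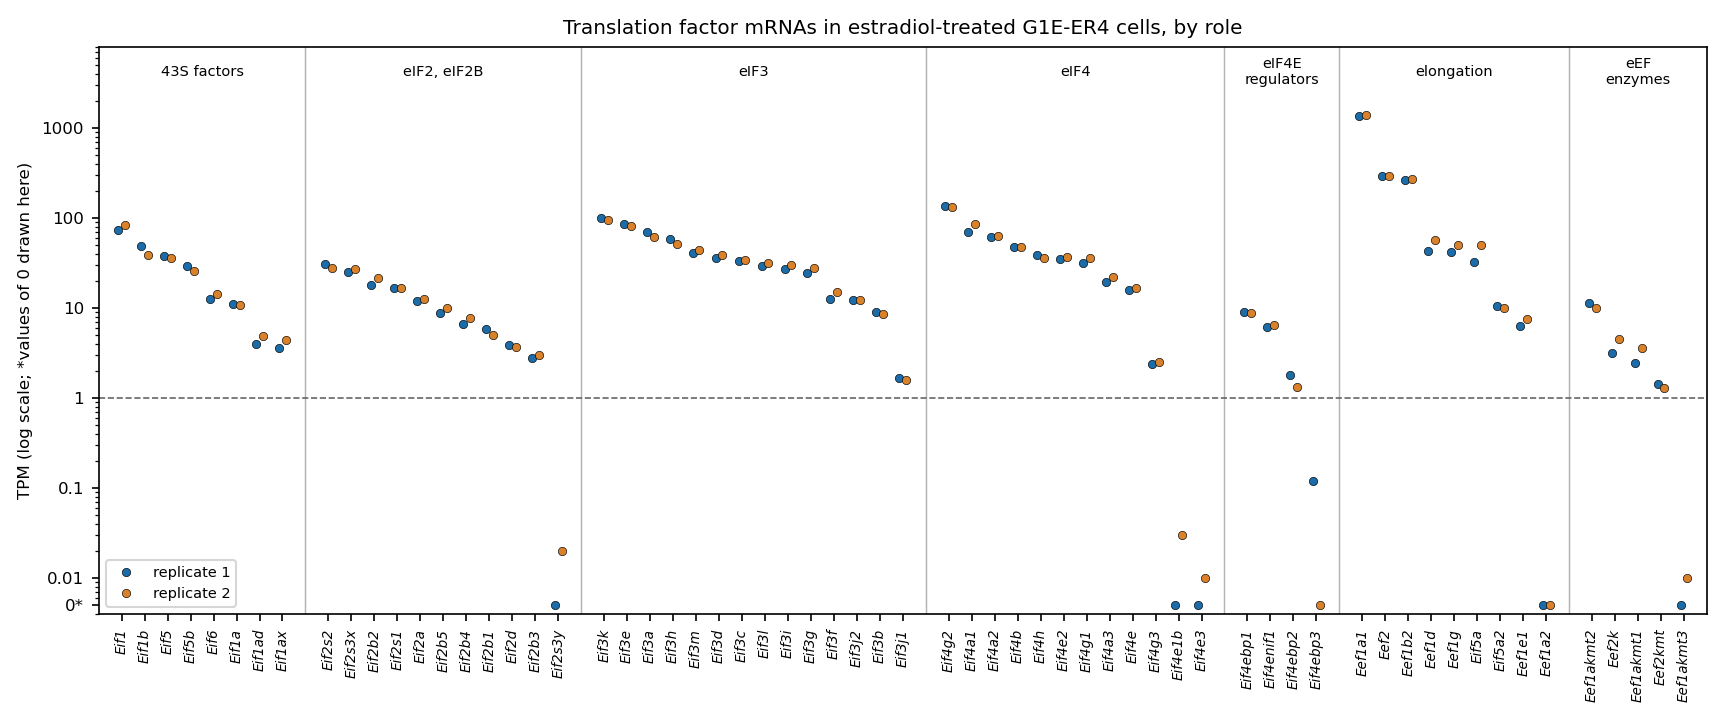
TPM of the 63 translation factors (log axis) in replicate 1 (blue) and replicate 2 (orange), grouped by role and ordered by mean within each role. The dashed line marks 1 TPM, and values of 0 are drawn at the foot of the axis. Eef1a1 stands alone above 1000 TPM, and 6 genes lie under 1 TPM. The group labelled 43S factors also holds Eif5b, Eif6 and Eif1ad.

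Paralogs among the eIF4 genes differed in level. The scaffold-like Eif4g2, whose protein resembles the end of eIF4G that binds eIF4A and eIF3 but lacks the eIF4E-binding part, had 137.72 TPM in replicate 1 and 134.67 TPM in replicate 2. Eif4g1, the main scaffold of eIF4F, had 31.62 and 36.47 TPM, and Eif4g3, its paralog, 2.40 and 2.56 TPM. Eif4g2 was 4.01-fold above Eif4g1 (log2 2.00 ± 0.17), and Eif4g1 was 13.7-fold above Eif4g3 (log2 3.78 ± 0.08). Part of the Eif4g2 level came from short transcripts described further on, and over protein-coding transcripts alone Eif4g2 was 2.19-fold above Eif4g1.

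Among cap-binding proteins, Eif4e had 15.94 and 16.93 TPM. Eif4e2, whose protein binds the cap but does not bind eIF4G as eIF4E does, had 35.25 and 37.11 TPM. Eif4e over Eif4e2 was log2 -1.14 ± 0.01, a 2.20-fold excess of Eif4e2 in both libraries. This direction rests on the correction for length, since Eif4e had slightly more expected counts, 8764 and 6414 against 8369 and 5854. Eif4e3 had 0 and 3 counts, and Eif4e1b, an oocyte form, 0 and 2 counts. With at most 3 counts, no ratio was formed for these genes.

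Eif4a1 and Eif4a2 encode closely related helicases, and Eif4a3 a relative in the exon junction complex. Eif4a1 had 69.76 TPM in replicate 1 and 86.31 TPM in replicate 2, Eif4a2 had 61.56 and 63.59 TPM, and Eif4a3 had 19.68 and 22.37 TPM. Eif4a1 over Eif4a2 was log2 0.31 ± 0.18, and Eif4a1 over Eif4a3 was log2 1.89 ± 0.09. Over protein-coding transcripts alone, Eif4a1 stood at 56.42 and 72.89 TPM against 13.47 and 12.83 TPM for Eif4a2, a 4.88-fold lead. The assignment of Eif4a1 reads was uncertain, because the processed pseudogene Eif4a-ps4 on chromosome 1 matched its coding sequence at 99.9% of 1218 bases. The stretch around the only base that differed is shown for both, with that base in capitals, from the GENCODE M21 transcripts on GRCm38.
Eif4a1 (chr11:69668694-69668753, minus strand): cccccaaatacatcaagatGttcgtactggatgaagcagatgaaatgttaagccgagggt
Eif4a-ps4 (chr1:60704446-60704505, plus strand): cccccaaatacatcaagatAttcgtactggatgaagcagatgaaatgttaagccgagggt

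Eif4a-ps4 was assigned 21.8% of the summed counts of this pair in replicate 1 and 21.3% in replicate 2. The posterior SD of the counts was 112 for both genes in replicate 1 and 96.1 for both in replicate 2. With the pseudogene's TPM added, Eif4a1 came to 100.3 and 123.1 TPM, and its ratio over Eif4a2 to log2 0.70 and 0.95. Eif4a1 was above Eif4a2 in each of these measures, and the size of its lead depended on where the shared reads were placed and on the transcripts included.

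The helicase cofactors Eif4b and Eif4h were close to each other. Eif4b had 47.92 and 48.27 TPM and Eif4h 38.70 and 36.29 TPM, log2 0.36 ± 0.07. Relative to the 3 core genes of eIF4F, cap-binding Eif4e was thus the lowest and Eif4a1 the highest, with a 4.75-fold range of means.

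Of the eIF4E regulators, Eif4ebp1, whose protein blocks eIF4E from eIF4G when mTOR is inactive, led with 9.04 and 8.90 TPM. Eif4ebp2 had 1.83 and 1.33 TPM, so Eif4ebp1 was 5.75-fold higher (log2 2.52 ± 0.31). Eif4ebp3 had 12.8 counts in replicate 1 and 0 in replicate 2, too few for a ratio. Eif4ebp1 over Eif4e was log2 -0.87 ± 0.08, which puts Eif4e 1.83-fold above Eif4ebp1 at the mRNA level. Eif4enif1, the nuclear import partner of eIF4E, had 6.23 and 6.59 TPM.

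Elongation factors held the highest levels. Eef1a1, which carries aminoacyl-tRNA to the ribosome, had 1383.84 TPM in replicate 1 and 1405.02 TPM in replicate 2 from 441598 and 307461 counts (chromosome 9, 78478449 to 78489151, minus strand). It ranked 2 of 21461 nuclear protein-coding genes by mean TPM. Its paralog Eef1a2, the muscle and neuron form, had 0 counts in replicate 1 and 1 count in replicate 2. Coding sequences of these paralogs were 80.1% identical, with no identical run over 23 bases.

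Eef2, the translocase, had 291.32 and 292.86 TPM and ranked 46, so Eef1a1 was 4.77-fold higher (log2 2.26 ± 0.01). Of the eEF1B subunits, Eef1b2 had 263.19 and 276.04 TPM, Eef1d 42.75 and 57.54 TPM, and Eef1g 41.88 and 50.75 TPM. Eef1b2 thus stood above its partners, and over protein-coding transcripts alone, at 88.24 and 108.35 TPM, it was 2.16-fold above their mean. Eef1a1 was 11.4-fold above the mean of the 3 exchange subunits (21.4-fold over protein-coding transcripts alone) and 30.2-fold above Eef1g alone. Eef1e1, which sits in the multi-tRNA synthetase complex, had 6.36 and 7.60 TPM.

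Eif5a encodes the hypusine-bearing factor that helps the ribosome past stalling sequences. It had 32.41 TPM in replicate 1 and 50.10 TPM in replicate 2, the largest difference between replicates among factors averaging 100 counts or more. Its paralog Eif5a2 had 10.47 and 10.17 TPM. Eif5a over Eif5a2 was 3.10 in replicate 1 and 4.93 in replicate 2, log2 1.97 ± 0.47. In counts not corrected for length the libraries disagreed, at log2 -0.49 in replicate 1 and 0.16 in replicate 2 (mean -0.17).

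Enzymes that act on elongation factors were much lower than their substrates. Eef2k, the kinase that inhibits eEF2, had 3.15 and 4.53 TPM, and Eef2 stood 77.3-fold above it (log2 6.27 ± 0.37), or 118-fold over protein-coding transcripts alone. Eef2kmt, the eEF2 lysine methyltransferase, had 1.44 and 1.30 TPM. Of the eEF1A methyltransferases, Eef1akmt2 had 11.37 and 10.00 TPM and Eef1akmt1 2.46 and 3.59 TPM. Eef1akmt3 had 0 and 2 counts.

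In all, 23 gene pairs were set against each other. In 5 of them the second gene had too few reads for a ratio. The other 18 had the same sign in both replicates with a mean log2 ratio larger than its SD. How many gene pairs picked at random would meet this rule was not counted. The number passing therefore describes these pairs and does not set them apart from other genes. The 18 include Eif3j1 over Eif3j2, whose split of reads was uncertain. With n = 2, an exact two-sided sign-flip test cannot go below p = 0.5, so no pair was tested. A ratio in TPM is a ratio of levels per length within a library and does not depend on depth. Over protein-coding transcripts alone, a comparison added after the values were seen, 17 of the 18 kept their direction beyond their SD and Eif1 over Eif1b turned.

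**Figure D3:**
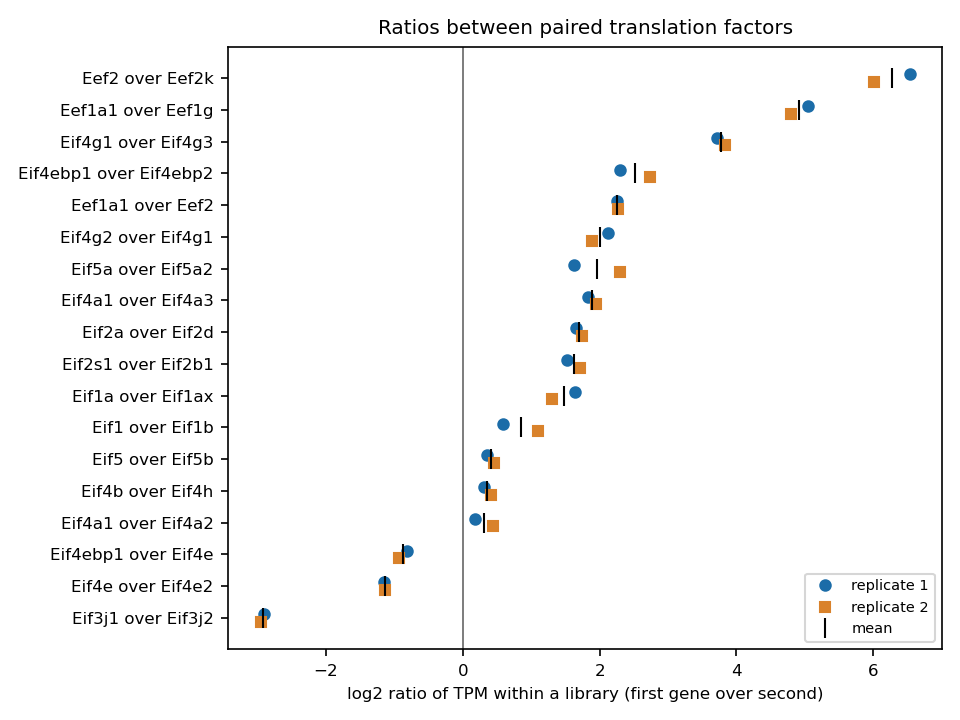
Log2 ratio of TPM within a library for the 18 gene pairs with 10 or more counts on average in both genes, in replicate 1 (blue circles) and replicate 2 (orange squares), with the mean as a black bar. The pairs run from Eif3j1 over Eif3j2 at -2.93, with an uncertain split of reads, to Eef2 over Eef2k at 6.27. No pair crosses 0 between replicates.

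The 6 genes under 1 TPM were Eef1a2, Eef1akmt3, Eif2s3y, Eif4e1b, Eif4e3 and Eif4ebp3. For 5 of them replicate 1 had 0 counts and replicate 2 between 1 and 4 counts, a pattern found in 14% of nuclear protein-coding genes and in 41.7% of those under 1 TPM with reads in either library. Only Eif4ebp3 had reads in replicate 1 alone, as did 3.51% of nuclear protein-coding genes. A count of 0 allows up to 3 counts in that library, and Eif4ebp3, with 12.8 counts in replicate 1, lay above that limit.

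Deposited transcript tables give the share of each gene's TPM that falls on each annotated transcript. Retained-intron transcripts keep an intron and are usually not translated, and transcripts of the nonsense-mediated decay class carry an early stop codon. Of the 57 factors at a mean of 1 TPM or more, 23 had a transcript annotated as retained intron. At that level 3566 of 7953 protein-coding genes had one. The median share of this class was 7.07% over those 23 factors, against 11.7% over those 3566 protein-coding genes. Counted as reads, which gives less weight to short transcripts, the medians were 6.27% and 5.87%, so the order turned round.

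Eif4a2 had the highest retained-intron share, 54.3% in replicate 1 and 56.8% in replicate 2, with a further 23.4% ± 0.616 on nonsense-mediated decay transcripts. Only 21.03% ± 1.21 of its TPM was assigned to protein-coding transcripts. The annotation places 6 small RNA genes on the same strand within Eif4a2, among them Snord2 and Snora81, and reads from such genes and from the host's introns cannot be told apart by gene. Whether they took part in the share was not tested. By counts the retained-intron share of Eif4a2 was 29.8%.

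Eif4g2 and Eif2b2 also held large retained-intron shares on short transcripts. Eif4g2 had 45.5% and 43.3%, of which 28.7% ± 1.87 lay on Eif4g2-204, a transcript of 418 bases. That transcript held only 3.92% of the gene's counts in replicate 1 and 3.11% in replicate 2. Eif2b2 had 40.2% and 52.2%, mostly on Eif2b2-206 of 338 bases, and by counts its retained-intron share was 10.1%. Eef2k had 23.2% and 43.6%, Eef2kmt 37.5% and 24.6%, and Eif4enif1 30.9% and 32.6%. These shares were steady between libraries for Eif4g2 and Eif4enif1 and moved widely for Eef2k and Eef2kmt.

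Decay-class transcripts were annotated in 9 of the 57 factors, against 1772 of 7953 protein-coding genes at a mean of 1 TPM or more. Their median share was 9.30% over those factors, against 3.99% over those genes. The factors' median was 14.5% in replicate 1 and 4.11% in replicate 2, so it rested on replicate 1. By counts the medians were 3.28% and 2.39%. The highest shares were in Eef1b2 and Eif2a. In Eef1b2 they held 61.7% ± 3.81 of the TPM, of which Eef1b2-205 alone held 61.7% in replicate 1 and 57.2% in replicate 2. The protein-coding share of Eef1b2 was 33.5% and 39.3%. Eef1b2 also holds small RNA genes on its strand, Snora41 among them, and their part in this share was not tested. In Eif2a the decay class held 40.7% ± 15.1, and the main protein-coding transcript Eif2a-201 held 43.8% in replicate 1 and 65.3% in replicate 2, so the share was not stable. Eif1 had 73.4% ± 0.212 on transcripts annotated as processed, and among them a form of 383 bases held 60.6% and 57.6%. By counts that form held 27.1% and 25.0%, and the protein-coding Eif1-201 held the most, 51.2% and 47.2%.

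Processed transcripts were annotated in 18 of the 57 factors, against 2869 of 7953 protein-coding genes at a mean of 1 TPM or more. The median share was 6.28% over those factors and 4.07% over those genes, or 1.87% and 0.845% by counts. In several other factors this class also held a large share of the TPM. It held 43.9% ± 1.07 of the TPM of Eif5b, 30.4% ± 5.97 of Eif6, 32.7% ± 8.83 of Eif3j1 and 31.3% ± 0.733 of Eif4a3. The protein-coding share of the TPM was 39.5% in Eif5b, 50.2% in Eif6, 67.3% in Eif3j1 and 68.7% in Eif4a3. The main processed transcript of each, 402 to 594 bases long, held a smaller share by counts. That share was 3.96% and 4.23% in Eif5b and 9.14% and 6.25% in Eif6. It was 2.65% and 4.44% in Eif3j1 and 7.47% and 7.07% in Eif4a3.

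In Eef1a1 the protein-coding share was 96.5% ± 0.0126, in Eif4a1 it was 82.7% ± 2.53 and in Eif4g1 81.6% ± 2.78. Eef2 and 10 of the 14 eIF3 genes had 1 transcript row each and no division to report. In Eif2b4, 47.5% ± 4.31 of the TPM lay on transcripts that are not in GENCODE M21, so its class shares are incomplete.

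**Figure D4:**
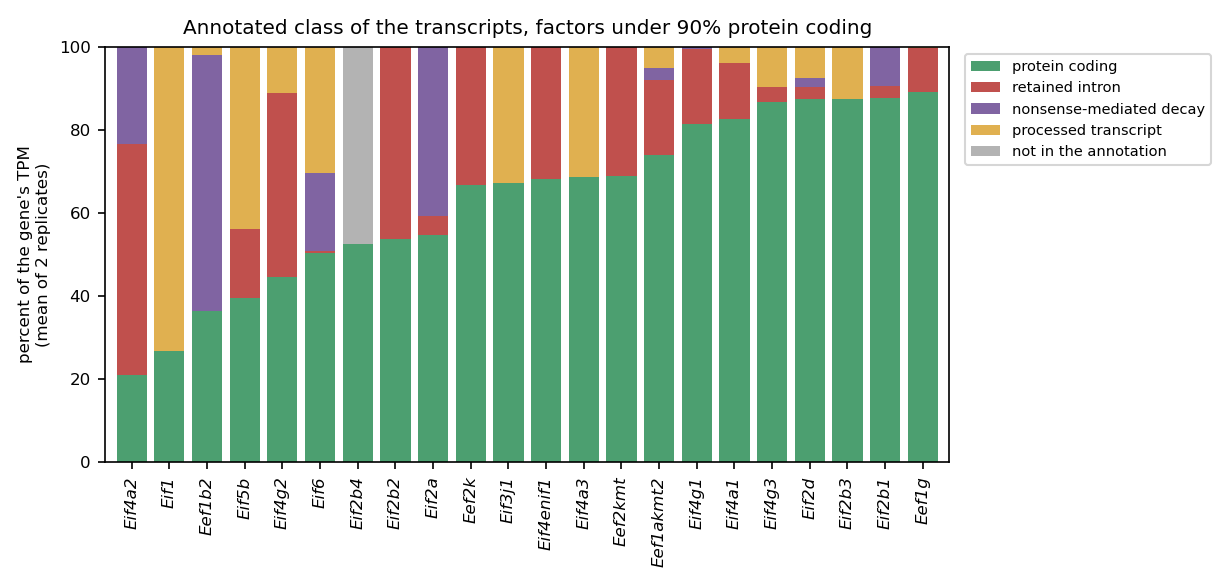
Percent of each gene's TPM by annotated transcript class, mean of 2 replicates, for the factors with under 90% on protein-coding transcripts, ordered from the lowest protein-coding share. Eif4a2 stands at 21.03% protein coding and 55.6% retained intron, Eef1b2 at 61.7% nonsense-mediated decay and Eif1 at 73.4% processed transcript.

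Many mRNAs of the translation machinery are known to begin with a C followed by a run of pyrimidines, a terminal tract that puts their translation under mTOR and LARP1 control. RefSeq promoter sequences (GRCm38.p6) were available for 48 of the 64 genes. The 16 genes without one included Eef1d, Eef1g, Eif3e, Eif3h and Eif4g2, which the shares below do not cover. The motif was C at the annotated start followed by 4 bases that are each C or T, read on the gene strand. It was found in 2 of the 48, Eif2s3x and Eif3f, which is 4.17%, against 3.01% of 27025 genes. Within 5 bases of the start the shares were 22.9% and 21.2%, and within 20 bases they were 47.9% and 53.3%. A match is a description of these letters and not of use, and the start used in these cells was not mapped here.

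Windows from 20 bases before to 30 bases from the annotated start are given for some of the genes with such a tract, to show where it lies. Eif2b5, not shown, had a longer run than any of these, 19 bases from 15 bases before the start. Capitals mark the longest run of pyrimidines that begins with C within 20 bases of the start, on the gene strand.
Eif3f (chr7:108934395-108934444, plus strand): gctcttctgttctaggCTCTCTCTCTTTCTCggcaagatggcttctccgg
Eif2s3x (chrX:94212622-94212671, minus strand): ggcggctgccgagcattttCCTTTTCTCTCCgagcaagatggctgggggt
Eif2s3y (chrY:1010575-1010624, plus strand): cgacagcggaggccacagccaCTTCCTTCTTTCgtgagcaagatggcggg
Eef1a1 (chr9:78481695-78481744, minus strand): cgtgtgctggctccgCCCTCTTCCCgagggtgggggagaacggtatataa
Eif3l (chr15:79075203-79075252, plus strand): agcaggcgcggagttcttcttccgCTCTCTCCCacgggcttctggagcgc
Eef2 (chr10:81176611-81176660, plus strand): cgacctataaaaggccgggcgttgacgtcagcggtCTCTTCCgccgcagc

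The tract spans the annotated start in Eif3f, Eif2s3x and Eef1a1, begins 1 base after it in Eif2s3y and 4 bases after it in Eif3l, and lies 15 bases after it in Eef2. Eif3f and Eif2s3x, with the longest runs at the start among these, stood at 14.1 and 26.4 TPM by mean. Eef1a1 and Eef2, whose runs are 10 and 7 bases long, stood at 1394 and 292 TPM. The Eef1a1 window ends in letters like a TATA box, a promoter element, after the annotated start. In Eef2 such letters lie 15 bases before the annotated start. The annotated start may therefore not be the first base of the Eef1a1 or Eef2 mRNA. The marked run of Eef1a1 may lie in its promoter, and the place of both runs in the mRNA was not tested. Eif2s3y carried a run of 12 bases, as did Eif2s3x, while its transcript was near 0.

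The replicates gave close values for the translation factors. Of 57 factors that averaged 100 expected counts or more, 0 differed 2-fold or more between replicates in CPM scaled by the TMM factors of edgeR, against 2.05% of all 9778 genes at that depth (0.481% higher in replicate 1 and 1.56% higher in replicate 2). A ratio of single libraries has no test. The median absolute log2 ratio was 0.15 for the factors and 0.16 for all genes, so the factors varied about as much as other genes of sufficient depth. The common biological coefficient of variation was 17.2% over the 11657 genes kept by the expression filter of edgeR.

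The factors leaned slightly toward replicate 2. The median log2 TPM ratio of replicate 1 over replicate 2 was -0.07 over 57 factors, or -0.10 after centring on expressed protein-coding genes. The credible bounds of TPM in the deposited tables did not overlap for 37 of 57 factors, against 49.2% of 7953 protein-coding genes. Of the factors 12 were higher in replicate 1 and 25 in replicate 2, whereas 28.5% of protein-coding genes were higher in replicate 1 and 20.7% in replicate 2. These bounds cover the assignment and counting of reads within a library and not the spread between cultures. By scaled CPM, 48.2% of all 9778 genes were higher in replicate 2. Of the factors, 7 of 8 elongation factors, 8 of 10 eIF4 genes, 8 of 10 genes of eIF2 and its exchange factor and 8 of 14 eIF3 genes were. So were 5 of 8 genes in the group holding Eif1, Eif1a, Eif5, Eif5b and Eif6. Of elongation factor enzymes 3 of 4 were, and of eIF4E regulators 1 of 3.

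The factors with the largest ratios in each direction were few and modest. Eif5a was 1.56-fold, Eef1akmt1 1.46-fold and Eef2k 1.35-fold higher in replicate 2. Eif4ebp2 was 1.35-fold, Eif1b 1.26-fold and Eif3j1 1.21-fold higher in replicate 1. These are folds of scaled CPM. Eef1akmt1 and Eif4ebp2 were among the least abundant, at 320 and 315 counts and at 593 and 297 counts.

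**Figure D5:**
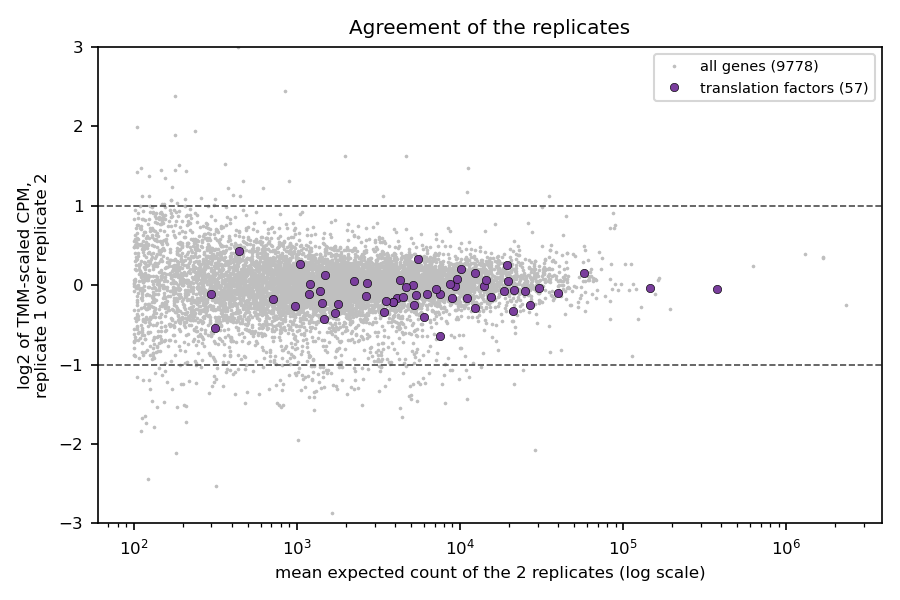
Log2 ratio of TMM-scaled CPM, replicate 1 over replicate 2, against mean expected count (log axis) for 9778 genes averaging 100 counts or more (grey) and the 57 translation factors among them (purple). Dashed lines mark a 2-fold difference. The factors lie between -0.64 (Eif5a) and 0.43 (Eif4ebp2), and 10 genes lie outside the plotted range.

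Other genes of the pathway were taken from a list of 59 with a row, of which 54 stood at 1 TPM or more in both replicates, with a median of 6.62 TPM. All 7 eIF2 alpha kinases and phosphatase genes passed. Eif2ak1, the haem-regulated kinase of erythroid cells, was the highest kinase at 24.31 and 20.74 TPM, above Eif2ak2 at 5.57 and 5.94 TPM, Eif2ak4 at 2.48 and 2.62 TPM and Eif2ak3 at 1.98 and 1.73 TPM. The phosphatase subunits that reverse their action were higher, with Ppp1r15a at 74.86 and 64.27 TPM and Ppp1r15b at 56.98 and 59.43 TPM.

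Among genes that signal to initiation, all 12 passed. Pdcd4, whose protein inhibits eIF4A, had 56.76 and 47.27 TPM, and Mknk1, a kinase of eIF4E, 57.08 and 51.92 TPM. Both stood above Eif4e itself. Of the poly(A)-binding and scanning helpers 11 of 12 passed, led by Ddx3x at 78.35 and 75.38 TPM and Pabpc1 at 67.88 and 56.72 TPM.

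Of 8 termination, recycling and rescue genes 7 passed, with the release factor Etf1 highest at 25.85 and 26.00 TPM and Gspt2 at 0 counts in both libraries. For the enzymes that modify eIF5A and eEF2, 7 of 9 passed. Dohh, the last enzyme of hypusine synthesis, had 22.87 and 20.22 TPM, and Dph1, a diphthamide enzyme, 0.44 and 0.35 TPM. Of 11 mitochondrial and selenocysteine factors 10 passed, with Mtif2 highest at 16.75 and 15.90 TPM. Tufm, the mitochondrial counterpart of eEF1A, had 6.39 and 6.98 TPM.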

How the data were processed

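The authors deposited a gene table and a transcript table for each library. Counts are expected counts, TPM and FPKM are length-scaled, and the percent of a gene's TPM is given per transcript, per the file headers. The deposited text lists name assembly mm10 and annotation M4; the aligner, program, versions and strand use are not given in the sources used here. Identifiers were joined without version to GENCODE M21 (GRCm38): 42462 of 43346 Ensembl rows matched. Library totals were 62080996 and 41051158 expected counts. TPM under 0.1 was recomputed from count and effective length for ratios. Expected counts were rounded and scaled with edgeR 4.0.16 (TMM, prior count 0.5) in R 4.3.3; an alternative used size factors of DESeq2 1.42.0. The scaling was tested on simulated data with less spread than these libraries and with changes balanced in both directions. It was not tested at the spread of these libraries. Other steps used Python 3.11.15 with pandas 2.3.3 and numpy 2.4.6. All genes of the rule could be named, values being given for complexes, pairs, genes under 1 TPM and the 3 largest replicate ratios in each direction; of other translation genes, the 4 most abundant and up to 3 under 1 TPM a list, while Eif2ak2, Eif2ak3 and Eif2ak4 were added after values were seen. The genes named for transcript shares, the start windows shown, the sum of Eif4a1 and Eif4a-ps4 and the minimum of 10 counts for a pair were also chosen after values were seen. Genes, lists and pairs were chosen with earlier results of these data known. A gene with 0 counts is given a limit of 3 counts, which covers counting error only, since reads carry no molecular identifiers.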

Additional observations from a re-analysis of the deposited data

Results flagged for a closer look

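The rows of 3 pseudogenes named after initiation factors had signal above the limit of 3 counts in both replicates. They are not protein-coding and so were outside the comparisons. Eif4a-ps4 had a mean of 33.65 TPM, with 6359 counts in replicate 1 and 5226 in replicate 2. Eif3s6-ps2 had a mean of 88.47 TPM from 748 and 344 counts, over an effective length of 38.2 and 29.6 bases, and the posterior SD of its count (8.85 and 5.53) equalled that of Eif3e. Eif3s6-ps1 had a mean of 4.925 TPM from 238 and 197 counts, with a posterior SD of 0.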

How the results depend on the processing

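No paired analysis was possible because there was 1 group of 2 libraries. The number of factors at 1 TPM was 57 with posterior mean TPM, FPKM, rescaled TPM, 0.1 TPM as threshold or either library alone, 47 at 5 TPM, and 54 without Eif3j1, Eif3j2 and Eif4a1, an alternative chosen after the values were seen. The median level of 16.82 TPM moved to 16.71 TPM with posterior means, 16.8231 TPM recomputed from counts and 26.3 TPM over genes averaging 0.1 TPM or more; each replicate alone gave 16.93 TPM. The factors' share of 2.47% of protein-coding TPM ranged from 2.46% to 2.48% with 1 library left out and was 2.45% with posterior means, 2.56% by expected counts, 0.352% of all Ensembl genes, 2.64% without histone and globin genes and, chosen after the values were seen, 1.49% without Eef1a1. All 18 pairs held their direction under FPKM, posterior means and a pseudocount of 1 TPM. With TPM as rounded when deposited, a setting added later, 18 also lay beyond their spread. With counts not divided by length 15 lay beyond their spread, and 14 of these kept their direction. Eif4e over Eif4e2 turned to log2 0.099, beyond its spread, and Eif5a over Eif5a2 turned to -0.17 without passing its SD. Eif1 over Eif1b and Eif5 over Eif5b no longer passed their SD. Over protein-coding transcripts alone, also chosen after the values were seen, 18 lay beyond their spread but Eif1 over Eif1b turned to -1.07. With no filter on counts 6 factors differed 2-fold between replicates, in each case the 6 under 1 TPM; other scalings gave 0. The median replicate ratio stayed between -0.10 and -0.07. The retained-intron median ranged from 5.81% to 8.41% over single libraries and from 6.27% by counts to 8.84% over genes of at least 5 TPM; over protein-coding genes it was 5.87% and 10.9% under those settings. Tracts were found in 11 factors within 5 bases and 23 within 20 bases, and in 2 with 6 pyrimidines required. Depth limits the 6 genes with at most 12.8 counts.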
